A study of Mus musculus with 6 samples.

Results

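The 8 genes described here encode the core of the apoptosome (Apaf1, Cycs, Casp9), the start of the death receptor pathway (Fas, Casp8, Cflar) and a caspase inhibitor with its antagonist (Xiap, Diablo). They were chosen by name for their roles, with earlier results of these data known. Each of the 8 has a row among the 27480 genes of the table. All 8 passed the filter on low counts. RNA was sequenced in 6 libraries of OT1 CD8+ T cells, that is, mouse cytotoxic lymphocytes with a transgenic receptor for an ovalbumin (OVA) peptide. The cells of 3 libraries are labelled OE vector (called vector), and those of the other 3 OE PTMA, where OE is overexpression and PTMA is prothymosin alpha. All cells of both groups are labelled WT in genotype and were exposed to OVA peptide over 48 h. The labels give neither the promoter nor the species of the construct, nor whether the replicates are different animals or cultures; p-values therefore reflect only how far these libraries lie apart, which may be technical.

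Cells that commit to intrinsic apoptosis release cytochrome c, the product of Cycs, from mitochondria. Cytochrome c binds Apaf1, which then assembles into the wheel-shaped apoptosome and activates caspase 9, which in turn cleaves further caspases. In the extrinsic pathway the death receptor Fas recruits caspase 8 through the adaptor Fadd, and c-FLIP, the product of Cflar, competes with caspase 8 for that place. Xiap binds and blocks caspases, and Diablo (also called Smac) leaves the mitochondria with cytochrome c and displaces caspases from Xiap. Activated T cells express these components, and Fas is known for removing T cells that meet antigen again. Prothymosin alpha, a small acidic nuclear protein, is known as an inhibitor of apoptosome formation. That action is on protein assembly, which RNA counts do not measure.

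Short stretches of coding sequence show how these members differ, read from GENCODE M21 transcripts (GRCm38) of the protein-coding transcript with the longest coding sequence. The first 3 are shown because c-FLIP resembles caspase 8 but is no protease. Capitals mark the 5 codons of the caspase active site in Casp8 and Casp9 (glutamine, alanine, cysteine, any of arginine, glutamine or glycine, then glycine), and in Cflar the 5 codons that begin at the one aligned with the first of these in Casp8.
Casp8: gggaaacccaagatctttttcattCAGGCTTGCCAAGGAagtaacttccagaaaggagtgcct
Casp9: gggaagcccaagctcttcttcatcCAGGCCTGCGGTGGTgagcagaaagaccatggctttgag
Cflar: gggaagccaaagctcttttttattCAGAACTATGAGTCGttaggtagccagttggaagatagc
Over 437 aligned residues the proteins of Casp8 (500 codons) and Cflar (484 codons) were 31.6% identical. Of the 5 marked residues 1 was identical, the marked codons of Cflar held 0 cysteines, and the active-site pattern was found 0 times in the Cflar coding sequence. The capitals lie on the plus strand in exon 9 of Casp8 (chr1:58844613-58844627), exon 6 of Casp9 (chr4:141807247-141807261) and exon 10 of Cflar (chr1:58752617-58752631).

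The next pair is shown because Diablo and caspase 9 bind Xiap through the same kind of short motif. Capitals mark the 4 codons of the motif (alanine, valine, proline, then isoleucine, tyrosine or phenylalanine).
Diablo: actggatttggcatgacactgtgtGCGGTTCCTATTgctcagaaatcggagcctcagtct
Casp9: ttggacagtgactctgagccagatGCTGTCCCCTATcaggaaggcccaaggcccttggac
The motif occurred 1 time in each of these coding sequences, at codons 54 to 57 of Diablo (exon 2, minus strand, chr5:123523261-123523272) and 354 to 357 of Casp9 (exon 7, plus strand, chr4:141811616-141811627), and 0 times in Xiap. These are reference sequences, and the count table does not show which transcript of a gene was present.

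The libraries held 54989408 to 66767589 counts. Expression is given as CPM (counts scaled to library size with TMM) between libraries and as the deposited FPKM (fragments scaled to gene length and library size) between genes. Ptma had 848, 783 and 1146 CPM across the vector libraries (1 to 3) and 1152, 1346 and 1272 CPM across the PTMA libraries, with a log2 fold change of 0.44 (SE 0.13) and an adjusted p of 0.951 (edgeR quasi-likelihood), short of the threshold. Among 16592 tested genes 2 passed, 0.0121% of them. All 8 listed CD8 T cell markers, such as Cd3e and Cd8a, had a mean of at least 1 CPM and summed to 5926 to 6534 CPM, while Cd4 reached at most 1.19 CPM. On the first principal component (25.9% of the variance) PTMA 1 (-18.0) lay among the vector libraries (-38.6 to -1.07). PTMA 2 (44.7) and PTMA 3 (40.9) lay apart from them. Vector 3 stood apart from the other vector libraries on the second principal component. The 11 listed oocyte markers summed to 25.1 to 35.0 CPM with the vector and 1.99 to 5.58 CPM with PTMA. Gdf9 was the highest of them in the vector group, and, among others, Zp2 and Ooep had a count of 0 in all PTMA libraries. Zar1 (mean 0.412 CPM with the vector and 0.570 with PTMA) and Nobox (0.181 and 0.219) went the other way. The 5 mature dendritic cell markers summed to 1.39 to 2.84 CPM with the vector and 9.06 to 11.7 CPM with PTMA, with Ccl22 the highest. Among them Il4i1 went the other way (mean 0.171 CPM with the vector and 0.127 with PTMA). Summed B cell markers (3.95 to 4.95 CPM with the vector, 5.37 to 6.69 with PTMA), myeloid and dendritic (16.1 to 19.2, 19.3 to 24.6), stromal (204 to 206, 212 to 217) and erythroid markers (0.248 to 0.387, 0.0765 to 0.122) did not overlap between the groups either. For single genes that held for 10.8% of all tested genes. The myeloid and dendritic sums nearly met, at 19.25 CPM in vector 2 and 19.28 CPM in PTMA 3. The erythroid sums were close to the floor, where 3 counts made 0.046 to 0.054 CPM, and 0 erythroid genes were tested. The part of these markers in the results below was not tested. In such bulk RNA, fewer expressing cells and less RNA per cell cannot be told apart.

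All 8 genes were expressed in every library, at levels that spanned a wide range. The mean deposited FPKM over the 6 libraries was 65.5 for Cycs, 41.5 for Casp8, 15.1 for Diablo, 5.43 for Cflar, 5.42 for Fas, 3.22 for Apaf1, 2.29 for Casp9 and 1.54 for Xiap. Cycs lay at percentile 95.1 of the tested genes, Casp8 at 91.6, Apaf1 at 50.8 and Xiap at 39.6. Along this order only the FPKM ranges of Cflar (5.06 to 6.21) and Fas (4.03 to 6.07) overlapped between neighbours. The apoptosome scaffold Apaf1 and its protease Casp9 thus had far lower RNA levels per length than the cytochrome c gene, and Xiap, the inhibitor, had the lowest level of the 8.

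The level of Cflar depended on the length used. The deposited FPKM divides by the length of all annotated exons of a gene joined together: the implied length lay within 5% of that union for 99.2% of 10137 genes. For Cflar, with 13 annotated transcripts, the union is 12669 bases, whereas the transcript with the longest coding sequence has 1771. Divided by that length, the mean level of Cflar would be 38.9 FPKM in place of 5.43. For Diablo, with a union of 6166 bases and a transcript of 1576, it would be 58.9 in place of 15.1. The other 6 members would shift by factors of 1.09 to 1.56. On that scale Casp8 would stand at 64.7 and Cycs at 71.4. Cflar and Fas, whose levels overlapped on the deposited scale, would lie far apart on the other one, while Apaf1, Casp9 and Xiap remained the 3 lowest on both. Fold changes between groups do not depend on this length.

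**Figure D1:**
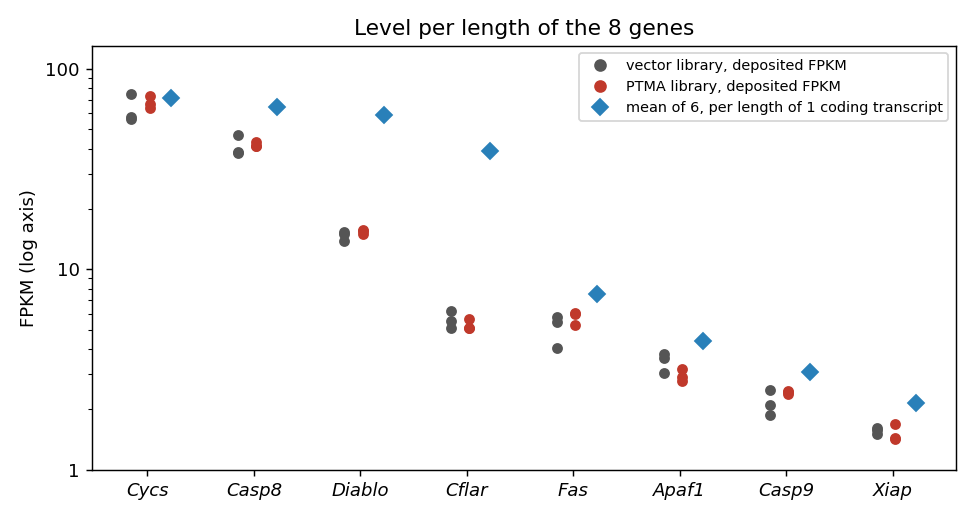
Level per length of the 8 genes, on a log axis of FPKM, ordered by mean. Circles are the 3 vector (grey) and 3 PTMA (red) libraries on the deposited scale, and diamonds are the mean of the 6 libraries divided by the length of 1 coding transcript. The diamonds of Cflar (38.9) and Diablo (58.9) stand far above their circles.

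None of the 8 genes passed the test between PTMA and vector libraries (edgeR quasi-likelihood, Benjamini-Hochberg adjustment over 16592 genes, smallest adjusted p = 0.951). By DESeq2, which called 47 of 20002 genes (0.235%), 0 members passed too. At an unadjusted p under 0.05 there was 1 member of 8, Apaf1, where 4.65% of all tested genes lay under that value. Log2 fold changes were positive for 5 members and negative for 3, against 46.8% positive over all tested genes. The median was 0.04 for the members and -0.01 for all tested genes. Leaving out vector 1 gave the members a median of 0.002, leaving out vector 2 one of -0.009 and leaving out vector 3 one of 0.13. It was 0.07 when PTMA 3 was left out, and 0.02 both when PTMA 2 was left out and with libraries scaled to their total count. The estimates ran from -0.24 to 0.18, and their 95% intervals were narrowest for Diablo and widest for Fas.

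Apaf1 (ENSMUSG00000019979, chromosome 10, 90989311 to 91082770, minus strand, GRCm38), the scaffold of the apoptosome, had 36.6, 36.4 and 31.8 CPM across the vector libraries (1 to 3) and 28.0, 29.4 and 31.6 CPM across the PTMA libraries. All 3 PTMA libraries lay below all 3 vector libraries, by a narrow margin between vector 3 and PTMA 3. It was the only member whose groups did not overlap, as held for 5.38% of all tested genes in that direction. Its log2 fold change was -0.24 (SE 0.10; adjusted p = 0.951), which is 0.85-fold with a 95% interval of 0.73 to 0.99. This interval is not adjusted for the number of genes. The unadjusted p of 0.0371 ranked 514 among the tested genes. The log2 fold change was negative in all 14 alternative fits, from -0.30 to -0.18, and passed in none. These fits reuse the same libraries, so their shared sign is no separate support. The oocyte marker sum given above was lower, and that of mature dendritic cells higher, in the same libraries.

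Casp9 (ENSMUSG00000028914, chromosome 4, 141793612 to 141815976, plus strand), the initiator caspase that Apaf1 activates, had 10.97, 13.9 and 12.6 CPM across the vector libraries (1 to 3) and 14.1, 14.4 and 13.7 CPM across the PTMA libraries. Vector 2 lay within the range of the PTMA libraries and the other vector libraries below it. The estimated log2 fold change was 0.17 (SE 0.12; adjusted p = 0.951), with a fold interval of 0.93 to 1.36. The 3 PTMA libraries were close together, with a coefficient of variation of 2.59% against 11.6% in the vector libraries. On the genome 94 exonic bases of Casp9 overlap Cela2a on the other strand, which had 4 counts in all.

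Cycs (ENSMUSG00000063694, chromosome 6, 50562563 to 50566538, minus strand), the gene of somatic cytochrome c, which also carries electrons in the respiratory chain, had 215, 209 and 294 CPM across the vector libraries (1 to 3) and 242, 280 and 251 CPM across the PTMA libraries. Vector 3 was the highest of the 6 libraries, and vector 1 and vector 2 the lowest. The log2 fold change was 0.11 (SE 0.13; adjusted p = 0.954), with a fold interval of 0.88 to 1.32. Without vector 3 it was 0.28 (adjusted p = 0.196), the smallest adjusted p of any member in any alternative.

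Cycs has close copies that can share its reads. At 90% identity or more over at least 150 aligned bases of the coding sequence there were 9 other annotated genes, of which 8 have rows. The copy Gm10053 is identical over all 315 coding bases and had 14520 counts in the 6 libraries, Gm10108 (99.4% identical) had 3054, and Cycs itself 94270. With the 8 copies added, which made up 16.0% of the pooled count, the level was 261, 246 and 352 CPM across the vector libraries (1 to 3) and 286, 334 and 298 CPM across the PTMA libraries. Its log2 fold change was then 0.10 (SE 0.13; adjusted p = 0.955). How reads shared with the copies were counted is not given, so that share does not bound the uncertainty of the level of Cycs. The difference of Cycs between groups hardly moved when the copies were added.

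**Figure D2:**
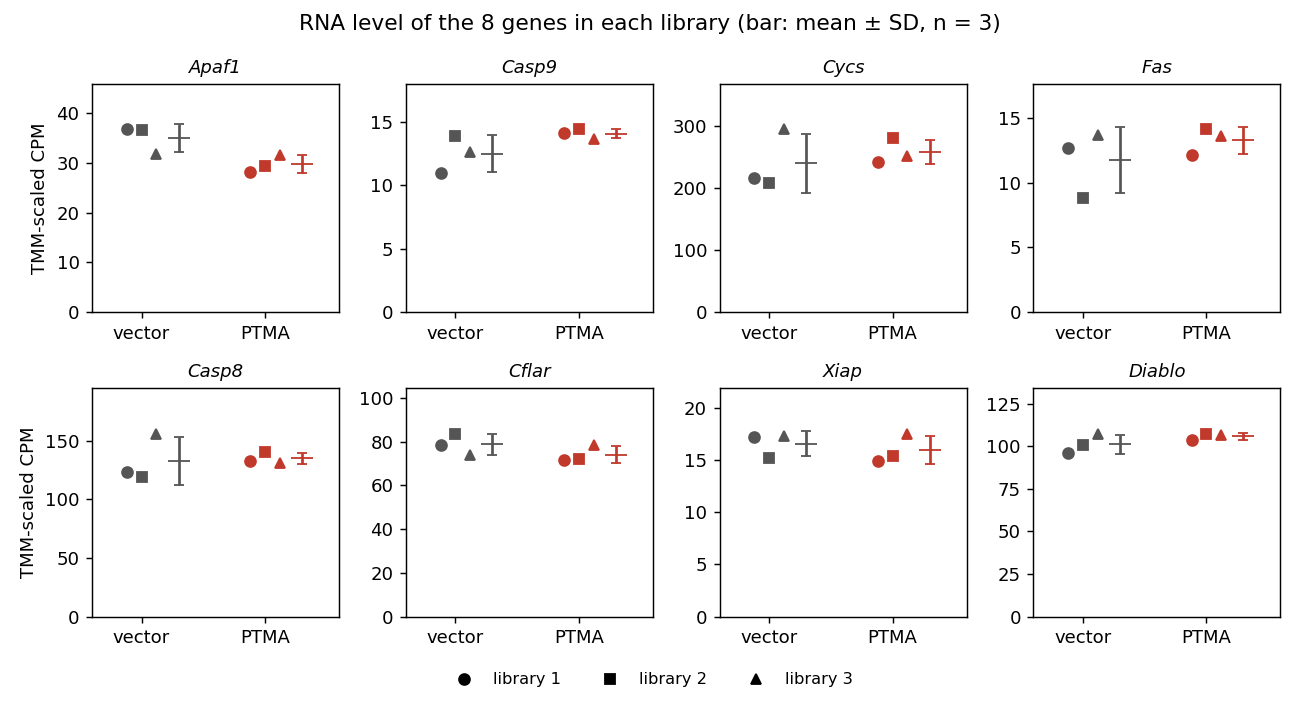
TMM-scaled CPM of each of the 8 genes in the 3 vector (grey) and 3 PTMA (red) libraries, with axes from 0. Marker shapes give the replicate number in the titles, and the bar beside each group is the mean with its SD (n = 3). Apaf1 is the panel in which the groups do not overlap, and vector 3 is the highest library for Cycs and Casp8.

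Fas (ENSMUSG00000024778, chromosome 19, 34290666 to 34327772, plus strand), the death receptor, had 12.7, 8.84 and 13.7 CPM across the vector libraries (1 to 3) and 12.1, 14.1 and 13.6 CPM across the PTMA libraries. Vector 2 alone was low, and the other 5 libraries ran from 12.1 to 14.1. The estimated log2 fold change was 0.18 (SE 0.17; adjusted p = 0.952), with a fold interval of 0.87 to 1.48. Without vector 2 it was 0.02 (adjusted p = 0.998).

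Casp8 (ENSMUSG00000026029, chromosome 1, 58795374 to 58847503, plus strand), the initiator caspase of the death receptors, had 123, 119 and 156 CPM across the vector libraries (1 to 3) and 133, 140 and 131 CPM across the PTMA libraries. As for Cycs, vector 3 was the highest library and the other vector libraries the lowest. The log2 fold change was 0.02 (SE 0.10; adjusted p = 0.984), with a fold interval of 0.86 to 1.20, and without vector 3 it was 0.16 (adjusted p = 0.276). Its sign turned in 4 of 14 alternatives.

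Cflar (ENSMUSG00000026031, chromosome 1, 58711508 to 58758884, plus strand), the c-FLIP gene, had 78.7, 83.7 and 74.2 CPM across the vector libraries (1 to 3) and 71.5, 72.2 and 78.6 CPM across the PTMA libraries. PTMA 3 lay among the vector libraries, and PTMA 1 and PTMA 2 below them. Its log2 fold change was -0.09 (SE 0.08; adjusted p = 0.952), with a fold interval of 0.83 to 1.06. A processed pseudogene, Gm9845, matches 597 bases of its coding sequence without a mismatch, but had 482 counts against 28931 for Cflar. The table does not separate the long form of c-FLIP from the short ones.

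Xiap (ENSMUSG00000025860, chromosome X, 42059679 to 42109656, plus strand), the caspase inhibitor, had 17.2, 15.2 and 17.3 CPM across the vector libraries (1 to 3) and 14.97, 15.4 and 17.6 CPM across the PTMA libraries. Each group held high and low libraries, and the groups overlapped over nearly their whole range. The estimated log2 fold change was -0.05 (SE 0.11; adjusted p = 0.972), with a fold interval of 0.81 to 1.15.

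Diablo (ENSMUSG00000029433, chromosome 5, 123509765 to 123524143, minus strand), the Xiap antagonist, had 95.9, 100.5 and 107 CPM across the vector libraries (1 to 3) and 103, 107 and 106 CPM across the PTMA libraries. PTMA 1 and PTMA 3 lay in the upper part of the vector range, and PTMA 2 (107.4 CPM) just above vector 3 (106.8 CPM). The log2 fold change was 0.06 (SE 0.07; adjusted p = 0.953), and the fold interval of 0.94 to 1.17 was the tightest of the 8. Of the 6166 exonic bases, 1326 overlap B3gnt4 and 122 overlap AC157931.1 on the other strand, and 1193 overlap Gm49027 on its own strand. These had 38, 209 and 62 counts against 39206 for Diablo. Whether the counting used strand is not given in the sources used here.

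**Figure D3:**
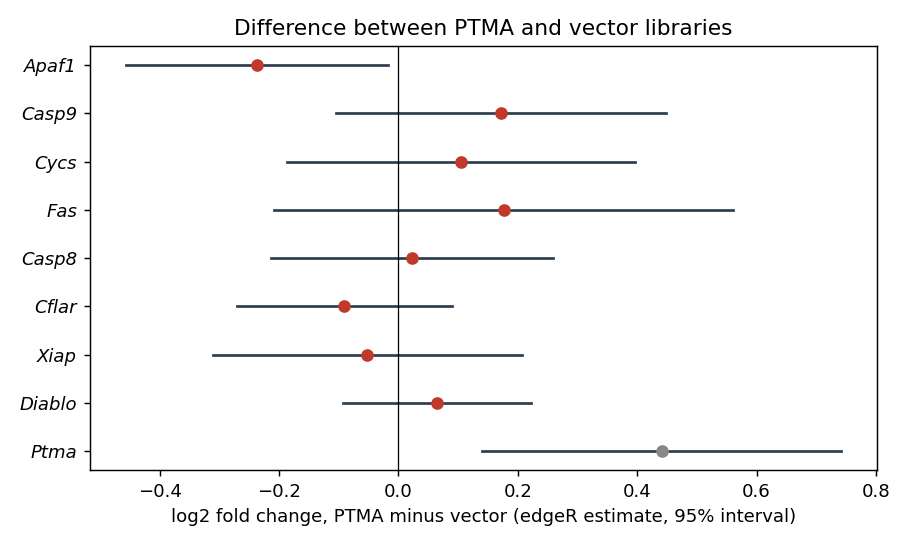
Log2 fold change of each gene, PTMA minus vector, as estimated by edgeR (points) with 95% intervals (lines) that are not adjusted for the number of genes. The interval of Apaf1 lies below 0 and that of Ptma, in grey, above it, the other 7 members' intervals cross 0, and no gene shown passed the adjusted threshold.

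Replicates of the vector group were further apart than those of the PTMA group for 7 of the 8 members, Xiap being the exception. The median coefficient of variation over the members was 9.76% in the vector and 5.65% in the PTMA libraries. Over all tested genes the vector group was the wider one for 60.6%, with medians of 14.1% and 10.3%. The direction of this imbalance among the members was thus also that of the whole table, and it was not tested as a difference.

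Ratios between partners within a library, which were not tested, are free of the scaling between libraries. The ratio of the deposited FPKM of Apaf1 to that of Casp9 was 1.93, 1.51 and 1.46 across the vector libraries (1 to 3) and 1.14, 1.18 and 1.33 across the PTMA libraries (means 1.63 ± 0.26 and 1.22 ± 0.10, SD, n = 3 each). All PTMA libraries lay below all vector libraries, with Apaf1 lower and Casp9 higher in the group means, neither past the test. Apaf1 alone already lay lower without overlap, so the ratio is no separate result. For single genes, the groups did not overlap in either direction for 10.8% of all tested genes.

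The ratio of Cflar to Casp8, the inhibitor to the protease, was 0.146, 0.161 and 0.108 across the vector libraries (1 to 3) and 0.123, 0.117 and 0.137 across the PTMA libraries. The PTMA libraries all lay inside the vector range. The ratio of Diablo to Xiap was 8.60, 10.2 and 9.48 across the vector libraries (1 to 3) and 10.6, 10.7 and 9.32 across the PTMA libraries, and the groups overlapped. The size of these ratios, unlike their comparison between libraries, depends on the exon lengths described above.

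**Figure D4:**
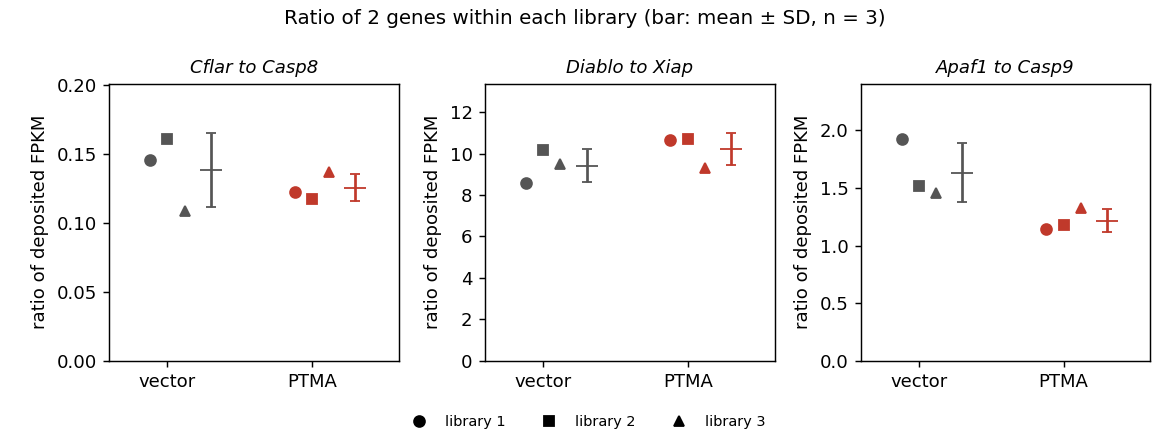
Ratio of the deposited FPKM of 2 genes within each library, for Cflar to Casp8, Diablo to Xiap and Apaf1 to Casp9, with axes from 0 and the mean and SD (n = 3) beside each group of vector (grey) and PTMA (red) libraries. The groups are apart only for Apaf1 to Casp9, with 1.46 to 1.93 in the vector and 1.14 to 1.33 in the PTMA libraries.

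Across the 6 libraries some members varied together. Among the other members and the pathway genes below with a mean of at least 1 CPM (52 candidates), the gene most like Casp8 in log2 CPM was Cycs (Pearson r = 0.96) and the one most like Cycs was Aifm1, a flavoprotein of the mitochondrial intermembrane space (r = 0.96). Diablo was most like Apip, a negative regulator of the apoptosome (r = 0.96). Apaf1 was most like the death receptor gene Tnfrsf25 (r = 0.91), Cflar like Birc2 (r = 0.90), Xiap like Rock1 (r = 0.82), Fas like Gas2 (r = 0.81) and Casp9 like Ripk3 (r = 0.68). These are the highest of many correlations over only 6 points that share library and scaling, and are given as a description.

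In 5 lists of related genes 49 genes were tested, and 0 passed in either direction. At an unadjusted p under 0.05 there were 4 of the 49, Tnfrsf10b, Htra2, Ptma and Hspa1b, beside 4.65% of all tested genes. Ptma is the gene labelled as overexpressed, so its place among them is no result about the lists.

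Among the other caspases, 6 of 8 listed genes had rows and were tested, 3 positive and 3 negative with a median log2 fold change of -0.002. Casp2, an initiator that responds to DNA damage, averaged 94.2 ± 7.43 CPM with the vector and 98.4 ± 1.14 CPM with PTMA (SD, n = 3 each; adjusted p = 0.955).

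On the death receptor side 14 genes were tested, 8 positive and 6 negative, with a median of 0.02. Here 5 genes lay higher without overlap and 1 lower, beside 5.39% and 5.38% of all tested genes, and the genes were not chosen independently of earlier results. Fasl, the ligand of Fas, was expressed at 75.5 FPKM, far above its receptor at 5.42, and averaged 162 ± 10.8 CPM with the vector and 164 ± 20.3 CPM with PTMA (SD, n = 3 each; adjusted p = 0.988). Ripk3, a kinase of necroptosis, had 91.0, 92.8 and 99.9 CPM across the vector libraries (1 to 3) and 103, 102 and 101 CPM across the PTMA libraries (log2 fold change 0.11, SE 0.07; adjusted p = 0.951). Tnfrsf10b, the TRAIL receptor, lay in the other direction at a low level, averaging 5.39 ± 0.38 CPM with the vector and 4.12 ± 0.51 CPM with PTMA (SD, n = 3 each), with a log2 fold change of -0.39 (SE 0.17; adjusted p = 0.951). Tnf averaged 15.01 ± 1.27 CPM with the vector and 17.4 ± 1.24 CPM with PTMA (SD, n = 3 each; adjusted p = 0.951).

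Of the other inhibitor of apoptosis proteins and their antagonists, 11 of 13 listed names had rows and 10 were tested, 3 positive and 7 negative with a median of -0.12 (-0.02 by limma on log2(FPKM + 1) with no filter). The groups did not overlap for 1 of the 10 in the higher and 1 in the lower direction, beside 5.39% and 5.38% of all tested genes, and both are among those named for the smallest p. Htra2, a mitochondrial protease that like Diablo antagonises Xiap, had 53.8, 54.6 and 60.6 CPM across the vector libraries (1 to 3) and 63.2, 69.3 and 66.0 CPM across the PTMA libraries. Its groups did not overlap, and the log2 fold change was 0.23 (SE 0.08; adjusted p = 0.951). Birc3, a ubiquitin ligase of the NF-κB pathway, had 46.8, 50.0 and 47.7 CPM across the vector libraries (1 to 3) and 41.9, 44.6 and 41.2 CPM across the PTMA libraries, also without overlap, with a log2 fold change of -0.18 (SE 0.08; adjusted p = 0.951). Birc5, known as survivin and needed in mitosis, was the most abundant of this list at 44.8 FPKM and averaged 161 ± 26.5 CPM with the vector and 179 ± 7.76 CPM with PTMA (SD, n = 3 each; adjusted p = 0.951).

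Of the apoptosome regulators 9 of 10 had rows, 5 positive (Ptma, labelled as overexpressed, among them) and 4 negative with a median of 0.03. The median ran from -0.08 to 0.10 when a library was left out, the lowest without vector 2. Ptma itself had the highest level of the list at 670 FPKM. Hspa8, the constitutive heat shock chaperone, averaged 2073 ± 186 CPM with the vector and 2215 ± 32.2 CPM with PTMA (SD, n = 3 each; adjusted p = 0.951). The stress-induced chaperone gene Hspa1b was rare, with 18, 40 and 40 counts across the vector libraries (1 to 3) and 10, 18 and 9 across the PTMA libraries (log2 fold change -1.48, SE 0.55; adjusted p = 0.951), and its near-identical neighbour Hspa1a can share its reads.

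Among caspase substrates and death nucleases 10 genes were tested, 6 positive and 4 negative with a median of 0.03. Parp1, a DNA repair enzyme and classical caspase substrate, had 220, 225 and 204 CPM across the vector libraries (1 to 3) and 240, 233 and 232 CPM across the PTMA libraries (log2 fold change 0.12, SE 0.06; adjusted p = 0.951). Rock1, a kinase that caspases cleave during membrane blebbing, averaged 178 ± 14.2 CPM with the vector and 160 ± 8.70 CPM with PTMA (SD, n = 3 each; adjusted p = 0.951), and Aifm1 averaged 60.1 ± 5.69 CPM with the vector and 62.1 ± 3.78 CPM with PTMA (SD, n = 3 each; adjusted p = 0.968).

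**Figure D5:**
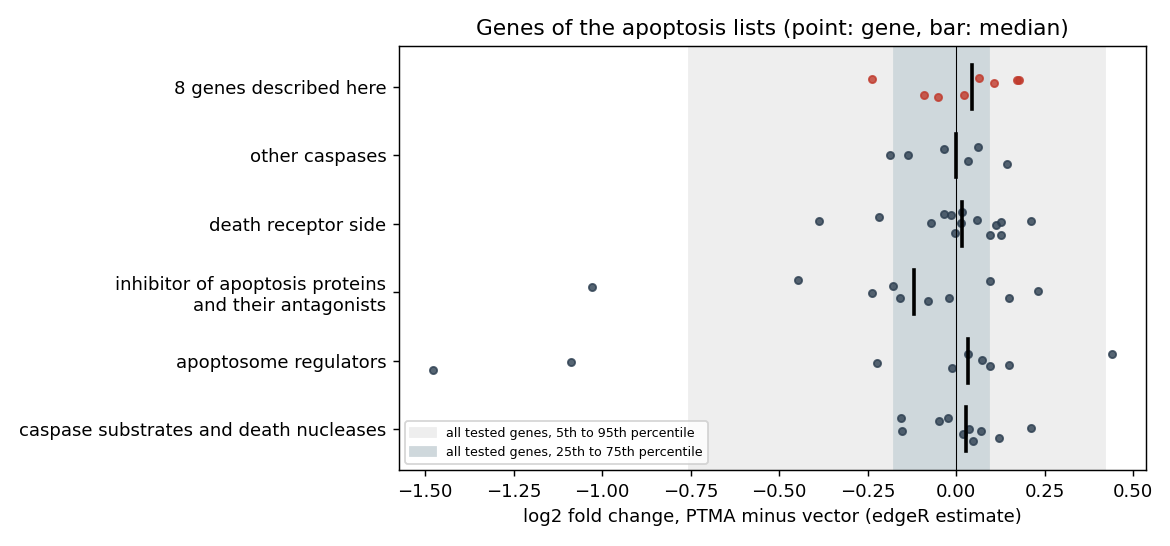
Log2 fold changes, PTMA minus vector, of the 8 genes (red) and of the tested genes of the 5 related lists (dark), with a bar at each median. Shaded bands span the 5th to 95th and the 25th to 75th percentile of all tested genes, and the points below -1 are the low-count genes Naip6, Hspa1a and Hspa1b.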

How the data were processed

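Per the labels, poly(A) RNA was read from both ends on an Illumina NovaSeq; the same text speaks of an adipose type, at odds with the labelled cells. The authors deposited a table of raw counts and FPKM per gene and library, per the file headers. The ratio of count to FPKM followed 1 factor per library within 1% for 99.98% of 10141 well-counted genes. Tools listed in the submitters' processing notes, without roles, are Bowtie 0.12.2, StringTie 1.3.0 and HISAT2 2.0, with mm8 as build. Coordinates match GRCm38 instead: 99.7% of 27405 identifiers shared a start or end with GENCODE M21. The counting program is not given in the sources used here.

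Counts were tested with edgeR 4.0.16 (R 4.3.3): TMM, filterByExpr (minimum count 10), quasi-likelihood, group as only term, Benjamini-Hochberg over 16592 genes, threshold 0.05. Intervals of 95% came from the same fit. Alternatives were other scalings, no filter, DESeq2 1.42.0, limma 3.58.1 on log2(FPKM + 1), a replicate block and leaving out each library. Copies were searched with blastn 2.17.0, and Casp8 and Cflar aligned with Biopython 1.88. The procedure was tested on simulated counts with changes of 1.5-, 2- and 4-fold. It recovered 47.8%, 83.6% and 98.5% of the 67, 67 and 66 genes so changed, and also called 20 unchanged genes. In the real data 2 genes passed, and adjusted p-values depend on how many genes change. The simulated shares therefore do not give the recovery in these data. Changes as small as the members' estimates were not simulated.

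The members and lists were chosen with earlier results of these data known. Named were Ptma, the members, and per list the 2 genes with the smallest p and the 2 with the highest FPKM. Some genes so chosen are not reported here. Of the marker lists, 1 gene passed the test, in the oocyte list. Lists whose sums overlapped between the groups ran over the 6 libraries from 107 to 130 CPM for CD4 and regulatory T cells (mostly Ctla4), 9.52 to 11.9 for NK cells and 1.37 to 26.5 for keratinocytes; the stromal sum was mostly Pecam1.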

Additional observations from a re-analysis of the deposited data

How the results depend on the processing

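No member passed the threshold in any of 14 alternative analyses. Over all genes the number past it was 2 under both other scalings, 0 with no filter on low counts, 47 with DESeq2, 1 with limma for genes averaging 1 FPKM or more, on log2(FPKM + 1) and likewise on log2(FPKM + 0.1), 0 with limma on all genes, and 0 to 4 when a library was left out (0 without vector 1 or PTMA 3, 1 without vector 3, 4 without PTMA 2); the cause was not tested. With a replicate block 0 genes passed, and the smallest adjusted p of a member was 0.992. The deviations of libraries sharing a number were correlated at -0.12, -0.16 and -0.12, so the numbers give no sign of pairing. The log2 fold change of Casp8 turned to -0.0019 with libraries scaled to their total count, and ran from -0.041 to 0.157 when a library was left out, being -0.028 without vector 1, -0.041 without vector 2 and -0.0067 without PTMA 2. The other 7 members kept their direction in all 14, with leave-out ranges of -0.30 to -0.20 for Apaf1, 0.02 to 0.28 for Cycs, 0.09 to 0.26 for Casp9, 0.02 to 0.30 for Fas, -0.13 to -0.04 for Cflar, -0.11 to -0.006 for Xiap and 0.03 to 0.11 for Diablo. Summing close copies into Cycs and Cflar, and the overlapping gene Gm49027 into Diablo, chosen after seeing the data, gave 0.10, -0.09 and 0.06. The 3 libraries per group limit the precision to the intervals given.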
